A study of Mus musculus with 6 samples.

Results

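Txnip, the other alpha arrestins, the glucose-sensing transcription factors that act on Txnip and the thioredoxin enzymes that its protein engages were followed in N2A cells after transfection against Pou3f3. The set holds 10 genes of the 19938 distinct symbols on the array: Txnip, Arrdc1, Arrdc2, Arrdc3, Arrdc4, Mlxip, Mlxipl, Mlx, Txn1 and Txnrd1. The rows were selected on the gene symbol and, where a symbol has several rows, on the highest mean over the 6 arrays, but each of these symbols had 1 row only. Txnip entered the set with its rise in these arrays already known. Its values, its interval and its calls are therefore given as a description and are no test of that rise.

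N2A is a mouse neuroblastoma cell line. Its cells received 1.5 μg of either a non-targeting vector (control, 3 arrays) or a short hairpin RNA vector against Pou3f3, which encodes a class III POU transcription factor (knockdown, 3 arrays). Both groups were grown in DMEM with serum, the transfection was transient and made with FuGENE 6, and RNA was taken 2.5 days later. Affymetrix Mouse Gene ST arrays measured the whole culture, in which a change per cell and a change in the share of cells that responded cannot be told apart. The sources used here do not state how much glucose the medium held. The study's methods speak of biological replicates, which here are cultures of 1 cell line, and the p-values measure how these cultures vary.

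Alpha arrestins are cytosolic adaptors that link membrane proteins to ubiquitin ligases of the NEDD4 family and so to internalisation. Txnip differs from most of them in that it also binds reduced thioredoxin through a disulphide bond. It promotes removal of the glucose transporter GLUT1 from the cell surface, as does Arrdc4. Transcription of Txnip and Arrdc4 follows glucose: MondoA (encoded by Mlxip) and ChREBP (Mlxipl) respond to glucose phosphates, pair with Mlx and bind carbohydrate response elements, which consist of E-box-like repeats set a fixed distance apart. Both genes are therefore in common use as reporters of glucose sensing.

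The promoter windows of the set were examined for such elements, because Txnip and Arrdc4 are both known targets of these factors. RefSeq windows of GRCm38.p6, which run from 250 bases before to 50 bases after an annotated start, were found for all 10 genes (15 windows). The bases before the start of Txnip at chr3:96557797-96557956 (plus strand) are printed with capitals for the carbohydrate response pair, for CCAAT boxes on either strand and for a forkhead match.
Txnip: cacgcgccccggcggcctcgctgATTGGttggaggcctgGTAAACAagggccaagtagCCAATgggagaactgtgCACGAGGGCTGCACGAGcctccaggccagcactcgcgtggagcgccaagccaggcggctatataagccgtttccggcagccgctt

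The pair was searched as CACGNG, any 5 bases and CACGNG again, on both strands. It lay 85 to 69 bases before the start of Txnip. The pattern occurred in 16 of 32851 windows (0.0487%), which belong to 15 genes. None of the other 14 windows of the set held it. The single repeat CACGAG was also found, on either strand, in windows of Arrdc1, Arrdc2 and Mlxipl, against 6.47% of all windows. Single E-boxes (CACGTG) were present in the windows of Arrdc4, Mlx and Mlxipl, against 7.15% of all windows, and are shown in capitals at chr7:68749415-68749442 (minus strand), chr11:101087239-101087266 (plus strand) and chr5:135089781-135089808 (plus strand).
Arrdc4: aaggtcctgtgCACGTGcactatggtgt
Mlx: gtgggttggatCACGTGactgagcctcg
Mlxipl: cggctgccatcCACGTGctaaggagaga

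CCAAT boxes (CCAAT on either strand, in 37.4% of all windows) were found in 9 of the 15 windows and in 8 of the 10 genes, with 2 in Txnip and 6 in Arrdc4. The forkhead motif GTAAACA was present in the window of Txnip and in 3.65% of windows, and the octamer ATGCAAAT, a motif of POU factors, was in none of the 15 windows and in 1.74% of all. The core of the antioxidant response element, TGACNNNGC, was found on either strand in windows of Arrdc4, Mlx and Txnrd1, against 12.4% of all windows. In Mlx one of the matches overlaps the E-box. The match of Txnrd1, in 1 of its 3 windows, lies on the minus strand, and the capitals mark its plus-strand bases (chr10:82859104-82859132, plus strand). Each of these is a match of letters, and no binding was measured here.
Txnrd1: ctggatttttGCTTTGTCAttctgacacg

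**Figure D1:**
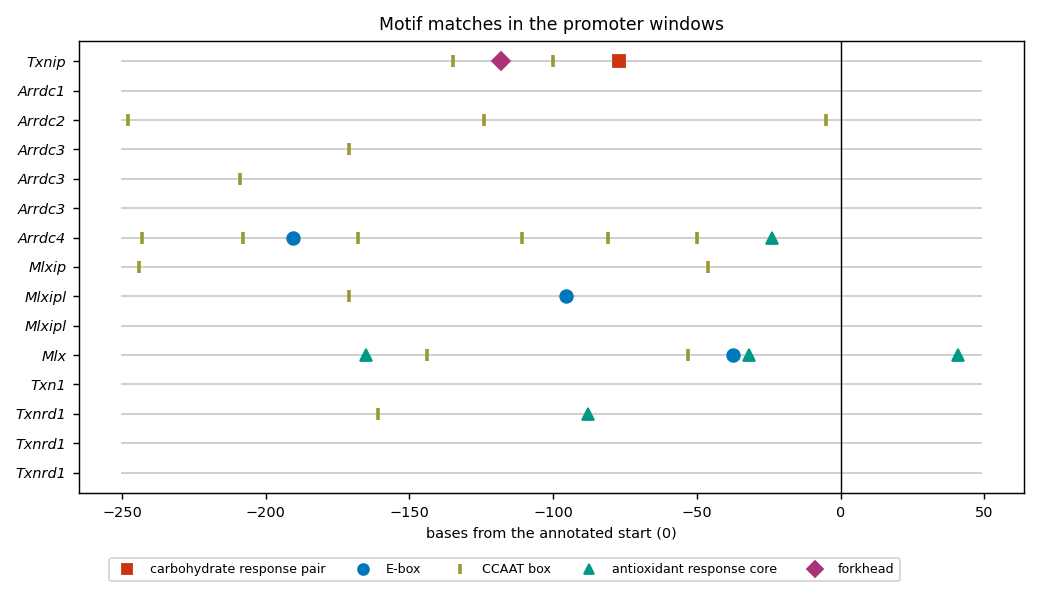
Positions of motif matches in the 15 promoter windows of the 10 genes (1 line per window, horizontal axis in bases from the annotated start at 0). In the arrangement searched, only the window of Txnip holds the carbohydrate response pair, 85 to 69 bases before the start. Other arrangements of the repeats were not searched, and single CACGAG matches are not drawn.

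All values that follow are log2 array values, and differences are knockdown minus control on the log2 scale. Calls required an adjusted p under 0.1 (limma, Benjamini-Hochberg over 21789 rows with 1 gene symbol) together with a fold of at least 1.3, which is 0.38 on the log2 scale. By this rule 1.99% of the rows were called (284 higher and 149 lower, or 232 and 193 after cyclic loess). The median difference of all rows was -0.03, or -0.000558 after cyclic loess. Pou3f3, the target of the hairpin, was at 8.37, 8.30 and 8.47 in control replicates 1 to 3 and at 8.20, 8.09 and 8.35 in the knockdown replicates. Its difference of -0.16 (95% confidence interval -0.35 to 0.02) did not pass the test (limma adjusted p = 0.303), with each knockdown array below the control array of its number. Of 12 measured neuroblast markers, the means ranged from 8.14 to 13.76, against 6.21 to 8.98 for 12 markers of other cell types, of which none was called, and among the neuroblast markers Dbh was called lower, joined by Th when the fit was blocked on replicate number. The mean over the markers of other cell types was 7.66 to 7.70 in control arrays and 7.52 to 7.62 in knockdown arrays, and 11 of 12 differences were below 0, where 57.8% of all genes lay below 0. The mean over the neuroblast markers was 11.69 to 11.78 and 11.53 to 11.55, with 7 of 12 below 0 and 5 above. The knockdown arrays lay below all control arrays for 5 of the 12, and for 4 of the 12 markers of other cell types, as for 15.2% of all genes. Gata3 (-0.33), Chga (-0.35) and Chgb (-0.378) passed the limit on p but not that on the fold. The list medians were -0.11 and -0.12, and their part in the results was not tested.

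Txnip was higher in knockdown cells, as was known when it was chosen. It was at 10.12, 9.83 and 10.20 in control replicates 1 to 3 and at 10.99, 10.58 and 10.89 in knockdown replicates 1 to 3. The lowest knockdown array lay above the highest control array, and replicate 2 was the lowest in both groups. The means were 10.05 ± 0.20 and 10.82 ± 0.21 (SD, n = 3), a difference of 0.77 ± 0.13 (SE) or 1.71-fold, the 9th largest rise among the 21789 rows. Each knockdown array lay above the control array that carries its number, by 0.87, 0.76 and 0.69. On leaving out 1 array the difference ran from 0.66 (without control replicate 2) to 0.89 (without knockdown replicate 2). Txnip met the rule for calls in the fit of rows with 1 symbol. It did not when rows with no symbol or several symbols were added, with the variance filter of the study's methods as read here or without it. This is given as a description, since the same difference put Txnip in the set.

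No other alpha arrestin was called, and the groups overlapped for each of them. Arrdc4, the arrestin gene that shares the glucose-responsive regulators of Txnip, was at 6.57, 6.52 and 6.54 in control cells and at 6.51, 6.41 and 6.56 in knockdown cells. Its difference was -0.05 ± 0.07 (SE; 95% confidence interval -0.20 to 0.10; limma adjusted p = 0.682), and it turned to 0.02 after cyclic loess. Its row stood low on the array, with 18.2% of the rows at or below its mean, and whether it exceeded background was not analysed here. Without a detection measure a change of a low transcript could be missed.

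Arrdc3, whose protein takes part in the trafficking of adrenergic receptors, was at 10.96, 11.08 and 10.87 in control cells and at 11.16, 11.04 and 10.94 in knockdown cells. The difference of 0.08 ± 0.08 (SE) was within the spread of the arrays (limma adjusted p = 0.618). Arrdc1, whose protein drives the budding of microvesicles from the plasma membrane, was at 9.74, 9.77 and 10.01 in control cells and at 9.64, 9.85 and 9.83 in knockdown cells. With a difference of -0.07 ± 0.09 (SE) it was higher in 1 of 3 pairs and lower in the others (limma adjusted p = 0.711), and it turned to 0.02 without control replicate 3 and to 0.00247 without knockdown replicate 1. Arrdc2, a further member with an arrestin fold, was at 8.88, 9.10 and 9.21 in control cells and at 9.02, 9.16 and 9.17 in knockdown cells. It differed by 0.05 ± 0.09 (SE, limma adjusted p = 0.769), which turned to -0.04 without control replicate 1. The remaining alpha arrestin gene of the array, Arrdc5, differed by -0.04 ± 0.08 (SE, limma adjusted p = 0.796) at a low level of 6.55 in control cells. The 95% confidence intervals of these 5 genes all included 0 and reached no higher than 0.26.

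**Figure D2:**
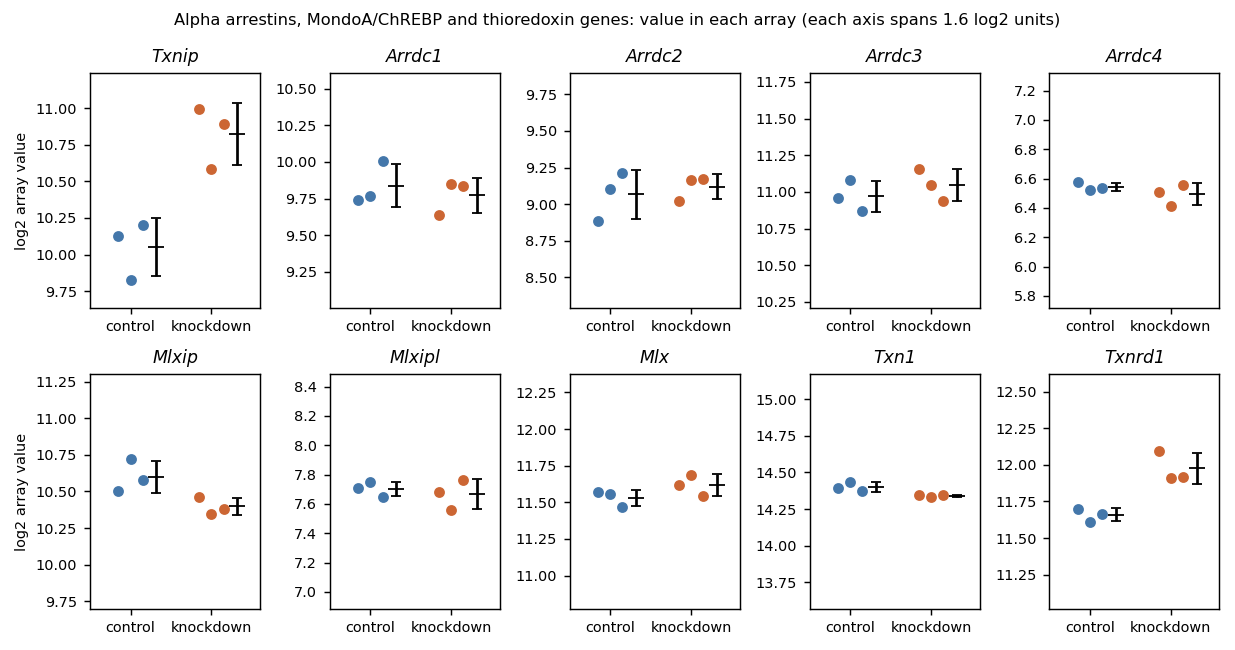
Log2 array value of each of the 10 genes in control and knockdown cells (each point is 1 array, replicates 1 to 3 from left to right, bars are mean ± SD, n = 3, and every axis spans 1.6 log2 units). Control and knockdown arrays are apart for Txnip and Txnrd1, which lie higher in knockdown cells, and for Mlxip and Txn1, which lie lower by 0.20 and 0.06.

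None of the genes of the transcription factors upstream of Txnip was called. Mlxip, which encodes MondoA, was at 10.51, 10.72 and 10.58 in control cells and at 10.46, 10.35 and 10.38 in knockdown cells. The groups did not overlap, and the difference of -0.20 ± 0.08 (SE; 95% confidence interval -0.37 to -0.03) did not pass the test (limma adjusted p = 0.190). It lay opposite in sign to that of Txnip in each of the 3 pairs of arrays, at -0.04, -0.37 and -0.19.

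Mlxipl, which encodes ChREBP, was at 7.71, 7.75 and 7.65 in control cells and at 7.68, 7.56 and 7.76 in knockdown cells, with a difference of -0.03 ± 0.07 (SE, limma adjusted p = 0.816). Its groups overlapped, and the difference turned to 0.04 after cyclic loess and to 0.02 without knockdown replicate 2. Mlx, the shared partner of both factors, was at 11.57, 11.56 and 11.47 in control cells and at 11.62, 11.69 and 11.54 in knockdown cells. It was higher in every pair, by 0.09 ± 0.07 (SE) on average, and its groups overlapped (limma adjusted p = 0.498). These are transcript levels, and the nuclear entry through which glucose acts on MondoA and ChREBP was not measured.

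Neither gene of the thioredoxin enzymes was called, but the reductase gene came close. Txnrd1, which encodes the cytosolic selenoenzyme that reduces thioredoxin with NADPH, was at 11.70, 11.61 and 11.67 in control cells and at 12.10, 11.91 and 11.92 in knockdown cells. All knockdown arrays lay above all control arrays. The difference of 0.32 ± 0.07 (SE; 95% confidence interval 0.15 to 0.48) corresponds to 1.24-fold. It passed the limit on p (limma adjusted p = 0.0704) but not that on the fold, so Txnrd1 was not called. With the replicate number as a block its limma adjusted p was 0.0114. On leaving out 1 array its adjusted p ran from 0.0799 to 0.246, and the difference from 0.26 to 0.35. Txn1, which encodes cytosolic thioredoxin itself, was at 14.39, 14.44 and 14.37 in control cells and at 14.34, 14.33 and 14.34 in knockdown cells. These groups were also apart, by a difference of only -0.06 ± 0.06 (SE, limma adjusted p = 0.590), at a level near the top of the array's range.

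Of the 9 genes beside Txnip none was called, where 2.01% of all genes were called, so no call among 9 is near the background. The groups did not overlap for 3 of the 9, Txnrd1, Mlxip and Txn1. Over all rows with 1 symbol the groups did not overlap in 26.0%, so a count of 3 in 9 is near the background. The 9 differences had a median of -0.03, the same to 2 decimals as that of all rows. After cyclic loess it was 0.03, where that of all rows was -0.000558.

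**Figure D3:**
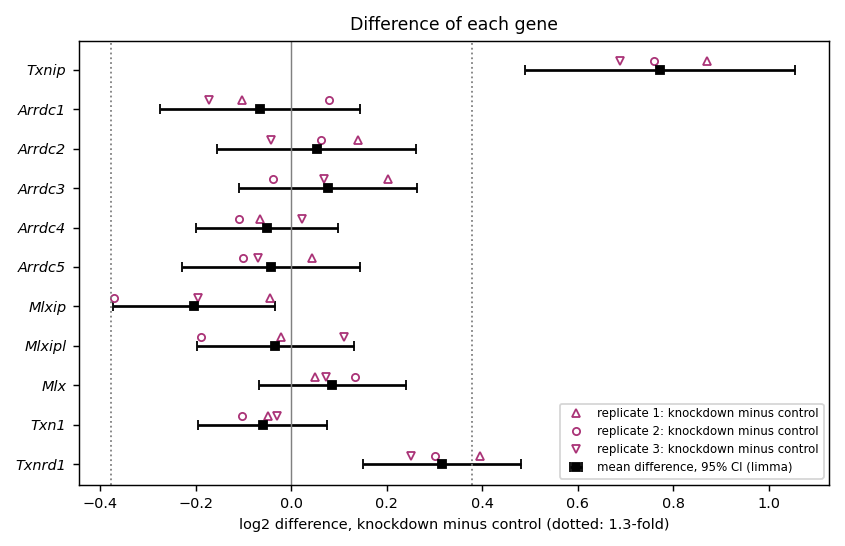
Log2 difference between knockdown and control for the 10 genes and Arrdc5 (squares with 95% confidence intervals from limma) and for each replicate number (open symbols), with dotted lines at 1.3-fold. Txnip, chosen for its rise, lies at 0.77 with an interval of 0.49 to 1.06, Txnrd1 at 0.32, and the intervals of the other alpha arrestins include 0.

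**Figure D4:**
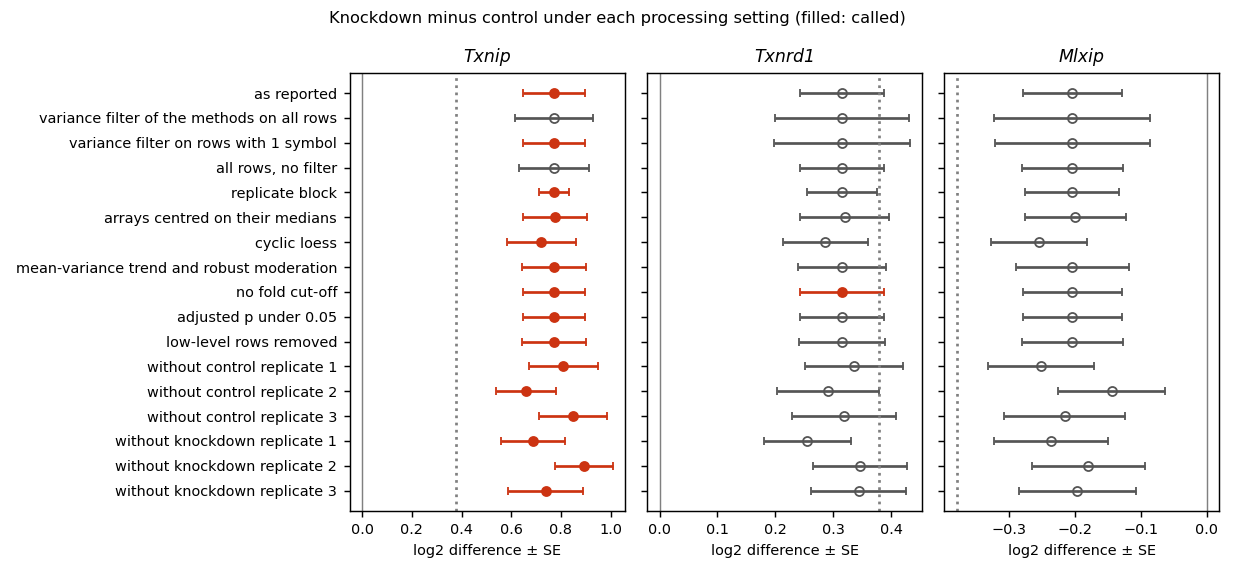
Difference ± SE of Txnip, Txnrd1 and Mlxip (horizontal axes, log2) as reported and under 16 other settings of the processing, where filled points were called and dotted lines mark 1.3-fold. Txnip, chosen for its rise, lies between 0.66 and 0.89 throughout, while Txnrd1 was called only when the fold limit was dropped and Mlxip in none.

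Across the 6 arrays the values of Txnrd1 lay close to those of Txnip (Pearson r = 0.95), and the deviations from the group means also had a positive r (0.70). For Txn1 the values were -0.89 and -0.53, for Mlxip -0.80 and -0.22, and for Arrdc4 -0.21 and 0.69. Among 1904 genes with an SD of at least 0.2, the 5 most like Txnip were Dync2li1 (r = 0.99), a gene of the ciliary dynein motor, Csrp2, Trit1, Mgst2 and D5Ertd615e (each r = 0.97). These correlations rest on 6 arrays that share the contrast and the numbering of the replicates, and they are a description only.

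Further genes known for their response to glucose through MondoA or ChREBP were measured beside Txnip. Of the 18 measured carbohydrate response genes other than Txnip, none was called, where 2.01% of all genes were called at 1 row per symbol. Of these 18, 16 lay below 0 with a median of -0.13, where 57.8% of all genes lay below 0 with a median of -0.03. The groups did not overlap for 9 of these 18, each time with the knockdown arrays lower, as for 15.2% of all genes. Fgf21, a hormone gene, had the largest difference (-0.28 ± 0.11, SE, limma adjusted p = 0.215), and Gpd1, which encodes a glycerol phosphate dehydrogenase, differed by -0.23 ± 0.07 (SE, limma adjusted p = 0.147). Their control means, 7.56 and 7.84, lay in the range of the markers of other cell types (6.21 to 8.98). Several others of the 18 also lay in this range, and 11 of those 12 markers lay below 0. Whether genes in this range exceeded background was not analysed. With rows of low mean removed from the fit, 11 of the 13 genes left lay below 0, with a median of -0.13. The fatty acid synthesis genes Fasn and Acly each differed by -0.13. After cyclic loess 13 of the 18 lay below 0, with a median of -0.11. The other 14 genes that hold the carbohydrate response pair, as searched, in a promoter window included 9 measured ones. None of these 9 was called, where 2.01% of all genes were. They ran from -0.22 to 0.33, with 6 above 0 and 3 below (median 0.06), where 42.2% of all genes lay above 0. Irak1bp1 (0.33, limma adjusted p = 0.0936) and Nfkb2 (0.30, limma adjusted p = 0.0881) passed the limit on p but not that on the fold.

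Genes of glucose entry and upper glycolysis held a single call among 17 measured, against 2.01% of all genes, and 0 in both fits that added rows with no symbol or several. Pfkfb3, which encodes an enzyme whose product activates phosphofructokinase, rose by 0.46 ± 0.07 (SE, limma adjusted p = 0.0192), with 9.62, 9.49 and 9.62 in control cells and 10.07, 10.10 and 9.95 in knockdown cells. Slc2a1, which encodes GLUT1, the transporter that Txnip acts on, was at 12.72, 13.24 and 13.05 in control cells and at 12.85, 12.84 and 12.85 in knockdown cells. Its control arrays lay on both sides of the knockdown arrays, and the difference of -0.16 ± 0.11 (SE) did not pass the test (limma adjusted p = 0.463).

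The ligases and transcription factors around the arrestins held no call, where 2.01% of all genes were called. For lists of this size that is near the background. Among 11 NEDD4 family ligases and adaptors the largest difference was that of the ligase gene Smurf2 (0.26 ± 0.08, SE, limma adjusted p = 0.126), and the median was -0.01, or 0.07 after cyclic loess. The 13 genes of the MYC, MAX and MLX network, which form related dimers on E-boxes, had a median of -0.03, or 0.02 after cyclic loess, and Mlxip itself had the largest difference. Among 7 genes of beta arrestins and VPS26 proteins, which share the arrestin fold, Vps26c had the largest difference (-0.28 ± 0.08, SE, limma adjusted p = 0.112).

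Txnrd1 also belongs to the targets of NRF2, and this list held 3 calls. Of 20 measured genes of the NRF2 pathway, a set of genes that respond to oxidants and electrophiles and includes Txnrd1, 3 were called, all higher (15%, against 1.35% called higher among all genes). The median of the list was 0.14 and 16 of 20 genes lay above 0. The groups did not overlap for 10 of the 20, with the knockdown arrays higher, as for 10.9% of all genes. Srxn1, whose protein repairs overoxidised peroxiredoxins, rose by 0.64 ± 0.09 (SE, limma adjusted p = 0.0164), from 9.92, 10.12 and 9.96 to 10.50, 10.78 and 10.63. Gsta4, which encodes a glutathione transferase for lipid aldehydes, rose by 0.55 ± 0.10 (SE, limma adjusted p = 0.0355), and Nqo1, a quinone reductase gene, by 0.43 ± 0.09 (SE, limma adjusted p = 0.0618). The control means of Gsta4 (7.46) and Nqo1 (8.73) lay in the range of the markers of other cell types (6.21 to 8.98).

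Gclc, which encodes the catalytic subunit of the first enzyme of glutathione synthesis, resembled Txnrd1, with 0.32 ± 0.08 (SE, limma adjusted p = 0.0860) and a fold below the limit. Hmox1 and Slc7a11, further genes of this pathway, differed by -0.07 and -0.06, and the transcription factor gene Nfe2l2 by 0.15 ± 0.09 (SE, limma adjusted p = 0.379). This list was written after the study's own list of changed genes from these arrays had been seen, so its count is not independent evidence. Without knockdown replicate 2 only 1 of the 20 was called, and in both fits with added rows 0 were. With the replicate number as a block 4 were called, Cbr3 being added. Of 20 measured thioredoxin, peroxiredoxin and glutaredoxin genes, Srxn1 was the sole call, against 1.35% of all genes called higher, and was not called in the fits with added rows. Here the list median was 0.03, which became -0.00182 without control replicate 1 and -0.00529 without knockdown replicate 2.

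**Figure D5:**
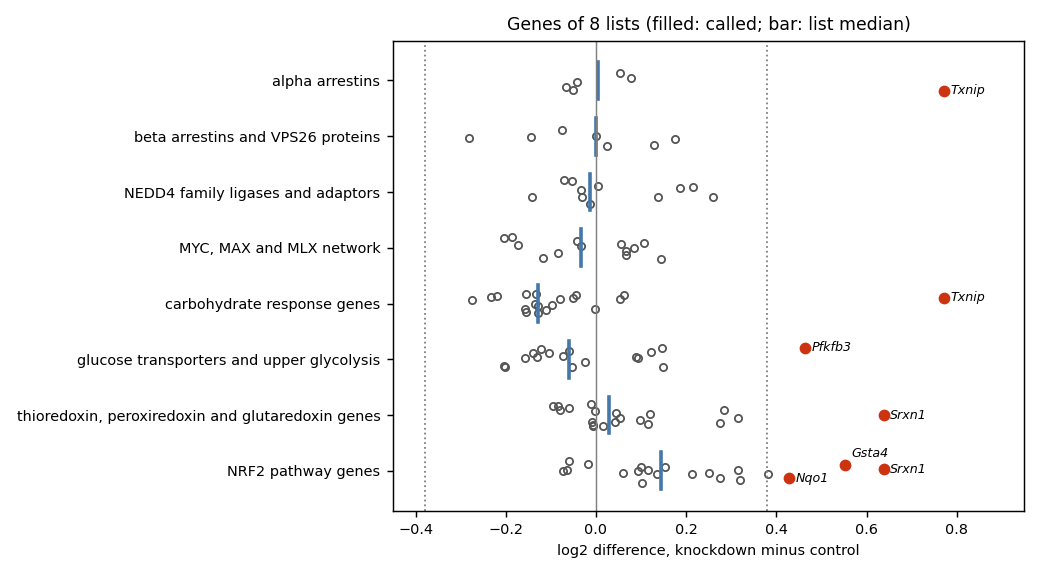
Log2 difference between knockdown and control for the measured genes of 8 lists (open circles, filled where called, vertical bars are list medians, dotted lines at 1.3-fold). Txnip, which was chosen for its rise, lies at 0.77, and 3 NRF2 pathway genes were called higher around a list median of 0.14.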

How the data were processed

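Before deposit the authors applied RMA background correction and quantile normalisation to the arrays and summarised probes per gene, which gave log2 values. The submitters' processing notes list RMA and limma but no versions. Quantile normalisation hides a change that most transcripts share. The values ran from 3.16 to 14.89. The number of arrays limits the precision.

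Of 35556 rows, 21789 had 1 symbol in the platform's gene table, of which 21698 were found by Entrez identifier in RefSeq (GRCm38.p6). These 21789 rows were fitted with lmFit and eBayes in limma 3.58.1 (R 4.3.3), two-sided, with 3 control and 3 knockdown arrays and no block. The limits on p and fold follow the study's methods. Its variance filter was left out because every gene of the set needs a value, and it was run as an alternative. The methods do not say whether the cut-off of this filter is a quantile. It was read here as one, at the median variance, so the alternative may differ from the study's own filter. The script was tested on simulated data. Groups came from the sample titles. Arrays of the same number deviated together (correlations of their deviations 0.64, 0.31 and 0.29), so the numbers were taken to pair the arrays, although control 2 with knockdown 3 (0.25) and control 3 with knockdown 2 (0.22) came near, and the block is an alternative.

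The genes of the set and the 8 lists were chosen with earlier results of these data known, and the fit of rows with 1 symbol was preferred with its number of calls known. For lists, the row with the highest mean stood for a symbol. Named genes are the set, Pou3f3, Arrdc5, called genes of each list or the largest difference where none was called, and the 5 genes most like Txnip. Gpd1, Fasn, Acly, Slc2a1, Gclc, Hmox1, Slc7a11, Nfe2l2, Irak1bp1, Nfkb2, Gata3, Chga and Chgb were added after their values were seen. So were Cbr3 and Th, which were called only with the replicate number as a block. Motifs were searched with Python 3.11.15 in promoter windows that RefSeq provides.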

Additional observations from a re-analysis of the deposited data

How the results depend on the processing

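The difference of Txnip, which was chosen for it, was 0.66 to 0.89 over 16 alternatives and met the rule for calls in 14. This describes the processing and is no independent evidence of the rise. Counts of 1 for the 10 genes, the alpha arrestins and the carbohydrate response list are Txnip itself. Rows with no symbol or several were added under the variance filter of the methods as read here (12 of 17778 rows called) or without it (28 of 35556). The filter kept 4 of the 10 genes. In both fits 0 were called among the 10 genes, the alpha arrestins, and the carbohydrate response, glucose, thioredoxin and NRF2 lists. With the filter on rows with 1 symbol only, 542 of 10894 rows were called, Txnip among them. The study itself reported more changed genes for this contrast than any fit here. The number of calls over all rows was 433 as reported, 161 without control replicate 2, 219 without control replicate 3 and 147 without knockdown replicate 2. Without the fold limit 969 rows were called, and the counts were 2 for the 10 genes (Txnip and Txnrd1), 7 for the NRF2 list and 2 for the thioredoxin list. At an adjusted p under 0.05, 291 rows were called. On leaving out each array in turn the count was 1 throughout for the 10 genes, alpha arrestins, carbohydrate response, glucose and thioredoxin lists, and 1 to 4 for the NRF2 list. With the replicate number as a block 544 rows were called. It gave 4 for the NRF2 list, where Cbr3 was added, and 1 for the 10 genes, and it changed no call of theirs. Under the block the limma adjusted p was 0.0114 for Txnrd1 and 0.0852 for Mlxip, and both stayed below the fold limit. Of the other genes of the lists and markers, Th was added. No other row could be tried for a gene of the set, since each has 1 row. The beta arrestin, NEDD4 and MYC lists held 0 calls in each alternative.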
